A study of Homo sapiens with 9 samples.

Results

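The regions described here are both terminal 5 Mb of chromosome 17, positions 1 to 5000000 at the short-arm (p) end and 78257442 to 83257441 at the long-arm (q) end of the GRCh38 build. Every γH2AX ChIP-seq peak whose midpoint fell in either end was taken as a member. The 8 peak lists held 2984 such peaks out of 213361 on chromosomes 1 to 22 and X, 1585 of them at the p end and 1399 at the q end. The ends were chosen by the density of peaks in these same lists, which was already known to be high there, so peak numbers and densities are given as descriptions, without a test.

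The study mapped γH2AX in a human B-lymphocyte line that the labels call GM09027A and the study's text GM07027, to ask whether agents that stall replication forks by different routes mark different loci. There were 2 lists each of untreated cells and of cells exposed for 24 h to 0.1 μg/mL aphidicolin (APH, an inhibitor of replicative DNA polymerases), 2 mM hydroxyurea (HU, which depletes nucleotides by inhibiting ribonucleotide reductase) or 200 μM methyl methanesulfonate (MMS, which methylates DNA). Beyond these agents no genotype or allele distinguished the groups, all of which came from the same line, so the lists speak for 1 cell line. The lists held from 4343 to 79950 peaks in all, were called against the same input, and hold no read numbers. Sequencing depth is therefore unknown, and peaks below the threshold of the caller are not seen.

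γH2AX is histone H2AX phosphorylated on its C-terminal tail by the kinases ATR, ATM and DNA-PK. It forms at stalled forks and at double-strand breaks and can spread over long stretches of chromatin on both sides of the lesion, so a peak marks a neighbourhood and not a break point. Chromosome ends carry telomere repeats, which are hard to replicate, and next to them subtelomeres, which hold segments duplicated between chromosomes. Both ends of chromosome 17 are rich in genes and G+C, and deletions in the p end cause Miller-Dieker syndrome, a disorder of neuronal migration. Neither end lies in the G-bands to which the common fragile sites of chromosome 17 are assigned.

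Bases covered by a peak in all 8 lists were few. They made up 1061 bp in 2 stretches at the p end, out of 1025 kb covered in any list, and 1702 bp in 5 stretches at the q end, out of 863 kb. At the q end 4 of the 5 stretches lay in TBCD, 488 to 496 kb from the end, and 1 in an intron of RAB40B, 564 kb from it. The sequences of the q end below are shown because they are bases marked whatever the treatment. They are 300 bp windows of the plus strand of GRCh38 in lower case, with CG dinucleotides in capitals. Each is centred on the longest stretch covered by all 8 lists within a site found in the most lists, where a site is the union of overlapping peaks of any list.
17q site 1, chr17:82760661-82760960: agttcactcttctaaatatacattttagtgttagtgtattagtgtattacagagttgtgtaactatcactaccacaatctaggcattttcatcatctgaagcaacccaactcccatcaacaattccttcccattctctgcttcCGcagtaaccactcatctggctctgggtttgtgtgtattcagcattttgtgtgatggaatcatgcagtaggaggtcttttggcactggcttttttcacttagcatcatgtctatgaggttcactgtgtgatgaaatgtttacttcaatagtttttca
17q site 3, chr17:82768969-82769268: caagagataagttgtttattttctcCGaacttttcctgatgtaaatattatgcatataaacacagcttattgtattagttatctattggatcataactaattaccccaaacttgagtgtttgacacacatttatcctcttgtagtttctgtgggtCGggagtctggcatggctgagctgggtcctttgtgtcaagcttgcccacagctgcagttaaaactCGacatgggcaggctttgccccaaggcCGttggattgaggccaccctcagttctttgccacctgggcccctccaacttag
Both printed windows were covered by all 8 lists. 17q site 1 (chr17:82753426-82764497) has its window in an intron of TBCD, and 17q site 3 (chr17:82765767-82773886) in an exon of TBCD annotated as neither coding nor UTR. The third site ranked with them at the q end was 17q site 2 (chr17:82828841-82842990), over TBCD and ZNF750. At the p end 17p site 2 (chr17:741206-747155) lay over the neighbouring genes TLCD3A and GEMIN4, and none of its bases was covered by more than 5 lists, although all 8 had a peak in it. G+C content of the windows of 17q site 1 and 17q site 3 was 38.7% and 44.7%, against 53.7% over the whole q end. Neither window held TTAGGG, the telomere repeat unit, on either strand, or a run of at least 12 A or T. Of all 300 bp windows of the q end, 8.73% held TTAGGG, against 9.38% over chromosome 17, so its absence from these windows sets them apart from few others.

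The ends carried a far higher density of peaks than the rest of the genome in every list, most of all without treatment. The number of peaks at both ends was 272 and 233 in the untreated lists, 393 and 322 with APH, 685 and 650 with HU, and 238 and 191 with MMS. This was 5.54% ± 0.219 (SD, n = 2) of the untreated lists and 2.26% ± 0.0495 of the APH lists. With HU the ends held 0.857% and 0.929% of the lists and with MMS 1.95% and 1.82%, so the raw number was highest with HU and the share lowest. Peaks per assembled Mb at the ends exceeded those in the rest of the genome 17.8- and 16.8-fold in untreated cells, 6.71- and 6.94-fold with APH, 2.55- and 2.77-fold with HU, and 5.87- and 5.48-fold with MMS. All treated lists were longer than the untreated ones. When each list was reduced to its 4327 strongest peaks, a comparison added after seeing the data, the ratios were 19.0 and 16.8 in untreated cells, 11.8 and 14.0 with APH, 2.61 and 3.52 with HU, and 7.48 and 7.69 with MMS. The order of the conditions, from untreated through APH and MMS to HU, was the same on either scale, with a wider gap between APH and MMS on the second. On chromosome 17 itself the ends held 53.9% and 56.3% of the peaks of untreated cells and 13.5% and 13.9% of those of HU-treated cells. Among 41 chromosome ends the p end of chromosome 17 ranked from 2 to 3 in peak density in every list and the q end from 2 to 7, with 9p the densest end except with HU, where it was 19p.

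Within both ends most peaks of untreated, APH- and MMS-treated cells lay in the outer 1 Mb, while most of those of HU-treated cells lay in the inner 4 Mb (a division chosen after the profile had been seen). At the p end the outer 1 Mb held 113 and 97 peaks in untreated cells, 125 and 127 with APH, 32 and 36 with HU, and 82 and 60 with MMS. The inner 4 Mb of that end held 25 and 19, 81 and 38, 356 and 307, and 44 and 43 peaks in the same order. By raw number HU thus had the fewest peaks of all conditions in the outer part and the most in the inner part. In neither part did its lists overlap the others. Per 1000 peaks of the list, the inner part of the p end held 5.23 and 4.39 in untreated cells and 4.45 and 4.39 with HU, so the HU share was not higher there. At the q end the outer 1 Mb held 111 and 102 peaks in untreated cells, 120 and 108 with APH, 94 and 112 with HU, and 73 and 65 with MMS, so that here the HU lists overlapped the others. The inner 4 Mb of the q end held 23 and 15, 67 and 49, 203 and 195, and 39 and 23 peaks. As the inner part is the longer, the HU lists were still denser per Mb in the outer part of the q end, unlike at the p end.

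**Figure D1:**
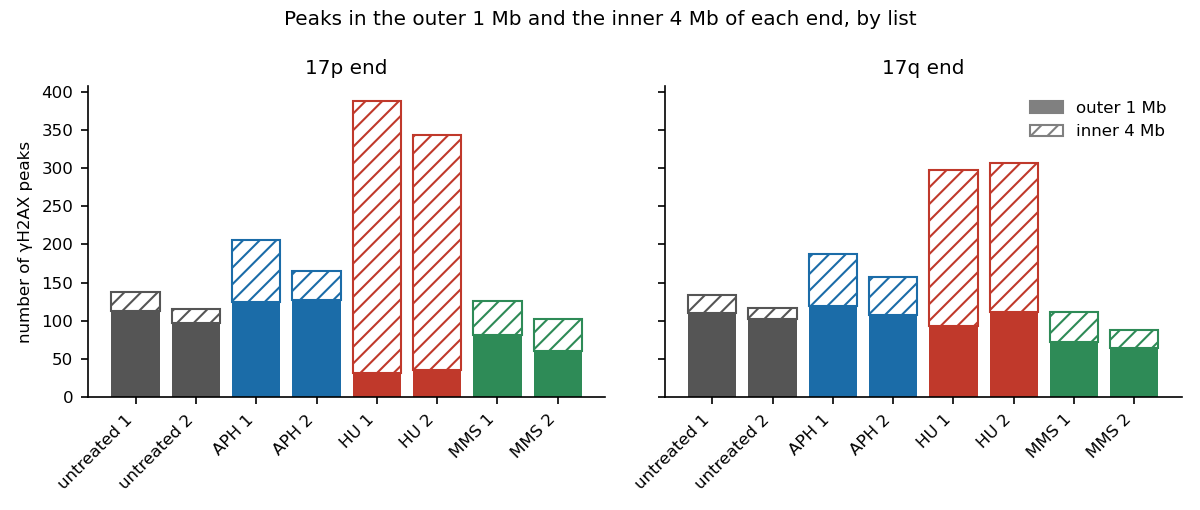
Number of γH2AX peaks (vertical axis) at the p end (left) and the q end (right) of chromosome 17 in each of the 8 lists, with filled bars for the outer 1 Mb and hatched bars for the inner 4 Mb stacked on them. The filled part is 113 and 97 peaks in untreated cells and 32 and 36 in HU-treated cells at the p end, where the hatched part of the HU lists is 356 and 307.

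Peaks covered 16.1% and 10% of the outer 1 Mb at the p end in untreated cells and 25.5% and 20.1% with APH, against 3.61% and 2.85% with HU and 6.66% and 5.87% with MMS. At the q end the covered share of the outer 1 Mb was 22.1% and 17.3% in untreated cells, 29.2% and 26.5% with APH, 10.4% and 12% with HU, and 5.79% and 5.40% with MMS. APH lists therefore covered the most bases of the outer parts and were above both untreated lists at either end.

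The block of peaks at the p end had sharp edges. No list had a peak in the first 404 kb of the chromosome, a stretch that includes RPH3AL and DOC2B, and none had a peak over the 236 kb from 960931 to 1197349. Only 190 kb of the first 250 kb are assembled, so part of the first stretch could hold no peak. Whether unassembled, duplicated or filtered sequence sets the outer edge was not tested. Between the 2 empty stretches the bin from 500 to 750 kb held 52 and 49 peaks in untreated cells, 53 and 57 with APH, 15 and 21 with HU, and 49 and 40 with MMS. In the bin from 750 to 1000 kb the numbers were 49 and 35, 64 and 59, 5 and 2, and 22 and 14. The 2 neighbouring bins differed in how the treatments stood to one another. In the first the MMS lists came close to the untreated lists, and in the second both were below them, while HU had 5 and 2 peaks in place of 15 and 21. At 50 kb resolution the HU lists held no peak from 800 to 1000 kb.

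At the q end the block reached closer to the telomere and faded inwards. The peak nearest to the chromosome end lay 54.0 to 58.3 kb from it in every list. The outermost 250 kb held 15 and 22 peaks in untreated cells, 17 and 17 with APH, 3 and 5 with HU, and 13 and 12 with MMS. From 250 to 500 kb the numbers were 43 and 40, 30 and 34, 11 and 13, and 38 and 31, and from 500 to 750 kb 34 and 29, 43 and 38, 37 and 44, and 16 and 13. The densest bin of the outer q end was thus a bin further inwards with APH than in untreated and MMS-treated cells. No list had a peak over the 182 kb from 82922682 to 83104413, which holds the genes METRNL and B3GNTL1.

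**Figure D2:**
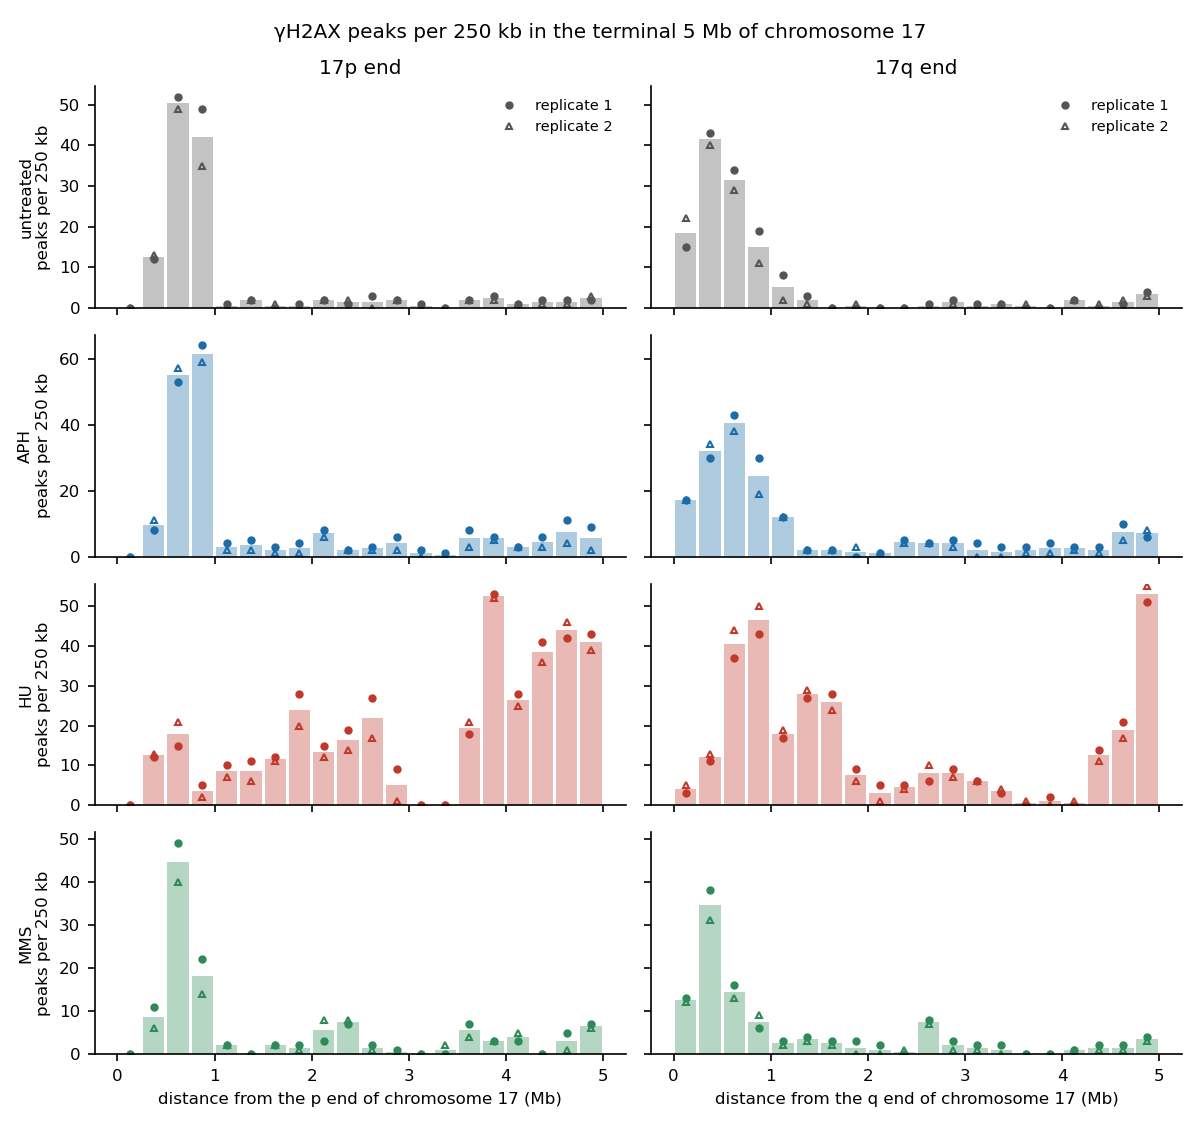
Peaks per 250 kb (vertical axis, scaled separately for each condition) against distance from the chromosome end (Mb) at the p end (left) and the q end (right), with 1 row for each condition, circles and triangles for the 2 replicates and bars for their mean. In untreated, APH- and MMS-treated cells the bars stand within about 1 Mb of each end, while HU gives 53 and 52 peaks at 3750 to 4000 kb from the p end and 51 and 55 at 4750 to 5000 kb from the q end.

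The HU lists had their densest bins far from the telomeres, with 53 and 52 peaks at 3750 to 4000 kb from the p end and 51 and 55 at 4750 to 5000 kb from the q end. In the former bin untreated cells had 3 and 2 peaks, APH 6 and 5, and MMS 3 and 3. In the latter the numbers were 4 and 3, 6 and 8, and 4 and 3. These are raw numbers from lists of very different length. Per 1000 peaks of the list (mean of 2 lists), the former bin held 0.703 with HU and 0.545 in untreated cells. The latter held 0.712 with HU and 0.765 in untreated cells, so its share was not higher with HU. Inner bins were not uniformly filled with HU either. None of its peaks lay between 3000 and 3500 kb from the p end, where the olfactory receptor genes are clustered, and the 250 kb bins from 3500 to 4250 kb from the q end held at most 2.

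To put lists of different length on one scale, the share of the list in each 250 kb bin was compared with the untreated lists, and a bin was counted where the 2 treated and the 2 untreated values did not overlap. With APH, 15 of the 40 end bins were lower (over 11660 bins of the genome, 4.25% were lower) and 5 were higher (genome, 14.3%). With HU, 15 were lower (genome, 4.59%) and 8 higher (genome, 22.8%). With MMS, 16 were lower (genome, 4.91%) and 4 higher (genome, 13.4%). A bin can be counted as lower only where both untreated lists hold peaks there, and the ends were chosen where peaks are dense, so nothing is read from the number of lower bins against the genome. With 1 list left out the numbers of higher bins ran from 5 to 11 with APH, 8 to 13 with HU and 7 to 9 with MMS. Leaving out a list relaxes the rule, so these numbers could only stay the same or rise. The bins within 250 to 1000 kb of the p end and within 1000 kb of the q end were lower with every treatment. The bins that were higher with HU included all those from 3750 to 4750 kb from the p end. These comparisons share the untreated lists, and they rest on shares: by raw peak numbers APH was higher in 19 bins and lower in 2, HU higher in 28 and lower in 5, and MMS higher in 9 and lower in 10.

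The q end and the p end carried nearly equal numbers of peaks. The p end held 138, 116, 206, 165, 388, 343, 126 and 103 peaks and the q end 134, 117, 187, 157, 297, 307, 112 and 88, both in the order untreated, APH, HU and MMS with replicate 1 first. The p end had more in 7 of 8 lists, with a mean log2 ratio of q to p of -0.15 ± 0.12 (SD, n = 8). The mean ratio turned in favour of the q end when only the terminal 2 Mb were taken (0.29) or only peaks of at least 3-fold enrichment (0.27), so neither end was the denser one on every scale. The share of end peaks at the q end was 49.8% ± 0.636 (SD, n = 2) in untreated cells and lower in all 6 treated lists, by 3.06 percentage points on average, and this difference changed sign with terminal windows of 2 or 10 Mb.

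Peaks at the ends were slightly more enriched than peaks elsewhere in every list. Median fold enrichment, the peak's signal relative to the local background, was 2.76 and 2.70 at the ends against 2.63 and 2.61 elsewhere in untreated cells. It was 2.64 and 2.80 against 2.55 and 2.67 with APH, 2.77 and 2.87 against 2.70 and 2.77 with HU, and 2.70 and 2.73 against 2.64 and 2.64 with MMS. The mean difference was 0.097 ± 0.025 (SD, n = 8 lists), positive in 8 of 8 (two-sided exact sign-flip permutation p of 0.00781, which is the lowest value 8 lists allow). Among peaks of at least 3-fold enrichment the difference was 0.003 (p = 0.828, same exact test). The share of such peaks was 13.6% and 10.7% at the ends of untreated cells against 4.62% and 3.86% elsewhere, and 14.2% and 25.2% against 10.8% and 17.4% with HU. Medians of untreated peaks in the inner 4 Mb were 2.62 and 2.61 at the p end and 2.68 and 2.55 at the q end, near those elsewhere. With APH and MMS the inner medians lay on either side of those elsewhere. With HU they were 2.76 and 2.88 at the p end and 2.77 and 2.87 at the q end, above those elsewhere.

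End peaks were also wider in every list, though barely so with HU. The median width was 852 and 738 bp at the ends and 527 and 542 bp elsewhere in untreated cells, and 837 and 866 against 560 and 552 bp with APH. With MMS it was 598 and 630 against 517 and 530 bp. With HU it was 786 and 744 against 763 and 743 bp, so the medians nearly coincided. The mean log2 ratio over the 8 lists was 0.36 ± 0.27 (SD), above 0 in 8 of 8 (exact sign-flip permutation test, p = 0.00781). The 8 lists share 1 input and 1 cell line, so they are not fully independent in either test, and peak calling links width, enrichment and the local density of signal. The widest end peak was 17967 bp, in APH replicate 1. Outside HU the excess width lay mostly in the outer 1 Mb. Untreated medians there were 933 and 713 bp at the p end and 1051 and 1040 bp at the q end. In the inner 4 Mb they were 502 and 510 bp and 354 and 484 bp, below those elsewhere. With APH and MMS the inner medians ran from 457 to 581 bp, on either side of those elsewhere.

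**Figure D3:**
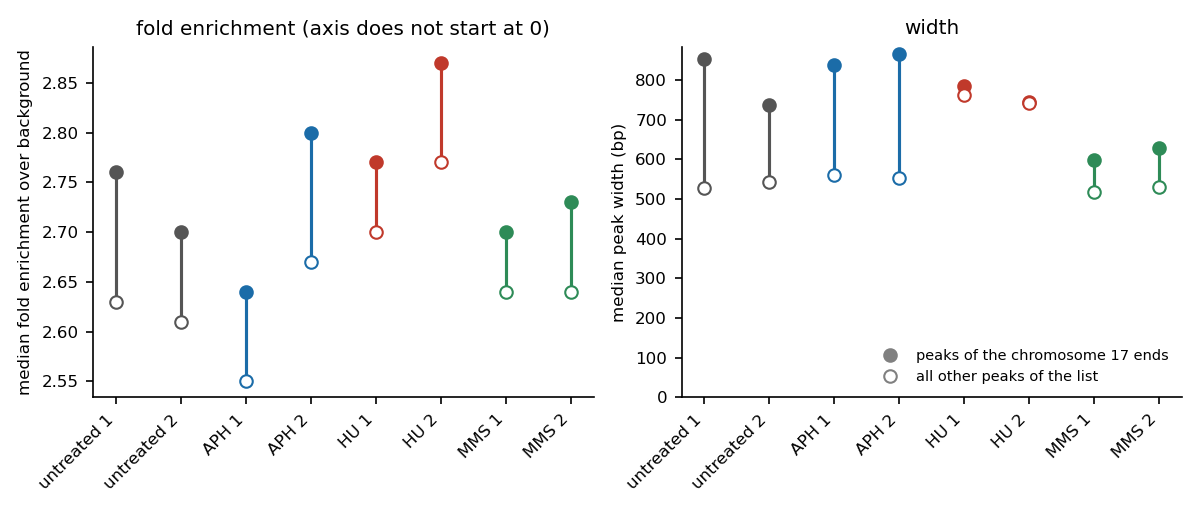
Median fold enrichment (left, axis from 2.55 upward) and median peak width in bp (right) of each list, with filled circles for peaks of the chromosome 17 ends and open circles for all other peaks. Filled circles lie above open ones in all 8 lists in both panels, and in the width panel those of HU nearly coincide.

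Few end peaks passed a correction for multiple testing outside HU. A q-value of at most 0.05 was reached by 6 and 1 end peaks of untreated cells, which is 1.39% of their end peaks (whole lists, 0.703%). With APH 6 and 15 end peaks reached it, or 2.94% (whole lists, 0.884%). With MMS it was 0 and 0 peaks, 0% (whole lists, 0.176%), and with HU 564 and 448, 75.8% (whole lists, 70.0%). Outside HU the lists at the ends therefore rest on peaks called by an uncorrected p-value. Overlap between replicates is given next, as a description.

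Outside HU, peaks of the ends overlapped the other replicate more often than peaks of the lists they came from. Of end peaks, 52.6% and 68.2% overlapped a peak of the other replicate in untreated cells (whole lists, 17.6%), 49.4% and 66.5% with APH (whole lists, 11.7%), and 30.3% and 37.7% with MMS (whole lists, 6.44%). With HU it was 48.6% and 52.6%, close to the 46.8% of the whole lists. Most of the shared peaks outside HU lay in the outer 1 Mb. There 62.9% and 78.9% of untreated peaks, 74.3% and 85.5% of APH peaks and 41.9% and 52.0% of MMS peaks were found in the other replicate. In the inner 4 Mb it was 4.17% and 5.88%, 8.11% and 14.9%, and 8.43% and 10.6%. Both untreated values were below the whole lists, the APH values lay on either side of them, and both MMS values were above. HU peaks were shared in 61.9% and 54.1% of cases in the outer and 45.6% and 52.2% in the inner part. A longer list meets more peaks of its partner, and a denser region does so too, which was not separated here. The ends were chosen where peaks are dense, and the outer 1 Mb was set after the profile had been seen. Nothing is therefore read from the excess over whole lists. With 4327 peaks kept in each list, 8.99% of HU end peaks were shared (whole reduced lists, 8.50%), against 59.8% of untreated (18.1%), 64.7% of APH (12.3%) and 26.3% of MMS end peaks (4.83%).

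**Figure D4:**
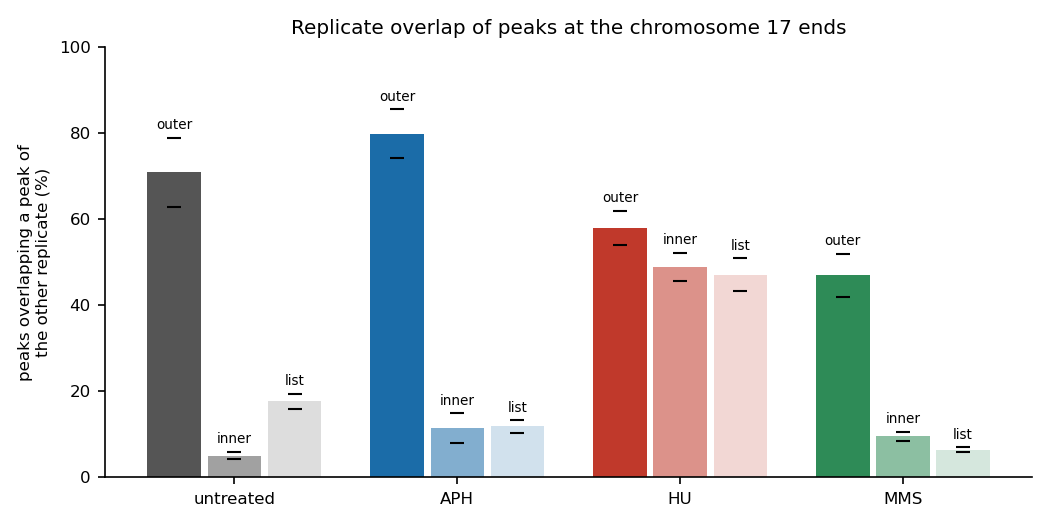
Share of peaks (%) that overlap a peak of the other replicate by at least 1 bp, for the outer 1 Mb and the inner 4 Mb of both chromosome 17 ends together and for the whole list, by condition, with bars for the mean and dashes for the 2 replicates. The dashes of the outer bar stand at 62.9% and 78.9% in untreated cells against 4.17% and 5.88% for the inner one, while the 3 HU bars are of like height.

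Conditions shared sites at the ends more often than in the whole lists, apart from untreated peaks met by HU. Of untreated end peaks, 82.4% overlapped an APH peak (whole list, 31.5%), 48.9% an MMS peak (whole list, 16.3%) and 44.4% an HU peak (whole list, 47.4%). Of APH end peaks, 53.7% overlapped an untreated peak (9.05%), 39.0% an MMS peak (9.96%) and 44.1% an HU peak (35.9%), the value for whole lists standing in parentheses here and below. Of MMS end peaks, 55.5% overlapped an untreated peak (6.86%), 66.7% an APH peak (14.0%) and 43.4% an HU peak (35.3%). Of HU end peaks, 16.9% overlapped an untreated peak (3.96%), 26.3% an APH peak (9.92%) and 15.4% an MMS peak (7.01%). All lists were called against 1 input, whose part in this sharing was not tested. Overlap also rises with list length, peak width and local peak density. The ends were chosen where peaks are dense, so nothing is read from the excess over whole lists.

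When overlapping peaks of all 8 lists were joined, the ends held 1269 sites, 695 at the p end and 574 at the q end. Of these, 704 were seen in 1 list only and 21 in all 8, 11 at the p end and 10 at the q end. A site present in both replicates of a condition was called replicated, and there were 115 such sites in untreated cells, 168 with APH, 310 with HU and 68 with MMS. Replicated in HU alone were 248 sites, 131 at the p end and 117 at the q end. In APH alone there were 47, in untreated cells alone 7 and in MMS alone 4. A further 40 sites were replicated in untreated and APH lists, 25 in these and MMS, and 21 in all 4 conditions. Counts of such sites over the whole genome are not given here. Over whole lists 46.8% of HU peaks overlapped the other replicate, against 17.6% of untreated, 11.7% of APH and 6.44% of MMS peaks. The HU lists were also the longest, so the numbers by condition are not read as a trait of the ends.

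The genes with most peaks were long genes of the outer blocks, and they fell into separate patterns across treatments. VPS53 (chr17:508503-721717, a subunit of the GARP and EARP complexes that tether vesicles in endosome recycling) held 43 and 41 peaks in untreated cells, 47 and 48 with APH, 9 and 18 with HU, and 39 and 32 with MMS. NXN (chr17:799310-979776), which lies in the same block and encodes the thioredoxin family protein nucleoredoxin, held 40 and 28 peaks in untreated cells and 49 and 48 with APH. It held none in either HU list and 11 and 3 with MMS, so both genes were densely marked without treatment but with MMS VPS53 alone was. TBCD (chr17:82752042-82945914, tubulin folding cofactor D) held 44 and 41 peaks in untreated cells, 31 and 35 with APH, 11 and 15 with HU, and 38 and 33 with MMS. In VPS53, NXN and TBCD the HU lists were below all others, although HU had the longest lists. Per 100 kb of gene, the untreated values were 20.2 and 19.2 for VPS53, 22.2 and 15.6 for NXN, and 22.7 and 21.1 for TBCD.

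Shorter genes in the same blocks were marked at a similar density. C17orf97 (chr17:410325-431062) held 5 and 7 peaks in untreated cells, or 24.2 and 33.8 per 100 kb, and 7 and 7 with HU. GLOD4 (chr17:757097-782294) held 8 and 7 peaks with APH. RAB40B (chr17:82654973-82698698, a Rab family GTPase) held 13 and 9, 9 and 14, 9 and 8, and 4 and 5 peaks in untreated, APH, HU and MMS lists, so that untreated, APH and HU lists overlapped and MMS lists were lower. The lncRNA gene ENSG00000262898 (chr17:83135734-83221442), the outermost marked gene of the q end, held 7 and 13, 9 and 9, 2 and 3, and 11 and 10.

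Genes outside the outer blocks or at their border held few peaks without treatment, and in some of them the raw number was highest with HU. The HU lists held 79943 and 69975 peaks on chromosomes 1 to 22 and X, against 4779 and 4327 in the untreated lists. Numbers per gene were not scaled for this, so they do not show a larger share of the list with HU. ITGAE (chr17:3714628-3801188), which encodes integrin αE of mucosal T cells, held 22 and 24 peaks with HU and at most 3 in any other list. ZZEF1 (chr17:4004445-4143030) held 18 and 16 with HU and at most 2 elsewhere. DNAH17 (chr17:78423697-78577396), a dynein heavy chain of the sperm flagellum, held 20 and 19 with HU and at most 3 elsewhere. FOXK2 (chr17:82519713-82644662, a forkhead transcription factor) lies within the outer 1 Mb of the q end, where the block of untreated peaks fades inwards. It held 4 and 2 peaks in untreated cells, 15 and 9 with APH, 18 and 23 with HU, and 7 and 4 with MMS. APH and HU lists were thus above both untreated lists, while the lower MMS list equalled the higher untreated one. RPTOR (chr17:80544819-80966371), the raptor subunit of mTOR complex 1, held no peak in untreated cells, 8 and 5 with APH, 6 and 7 with HU, and 8 and 8 with MMS. SMG6 (chr17:2059839-2303785), an endonuclease of nonsense-mediated RNA decay, held 3 and 1 peaks in untreated cells, 7 and 6 with APH, 14 and 9 with HU, and 2 and 11 with MMS, where the replicates differed widely.

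**Figure D5:**
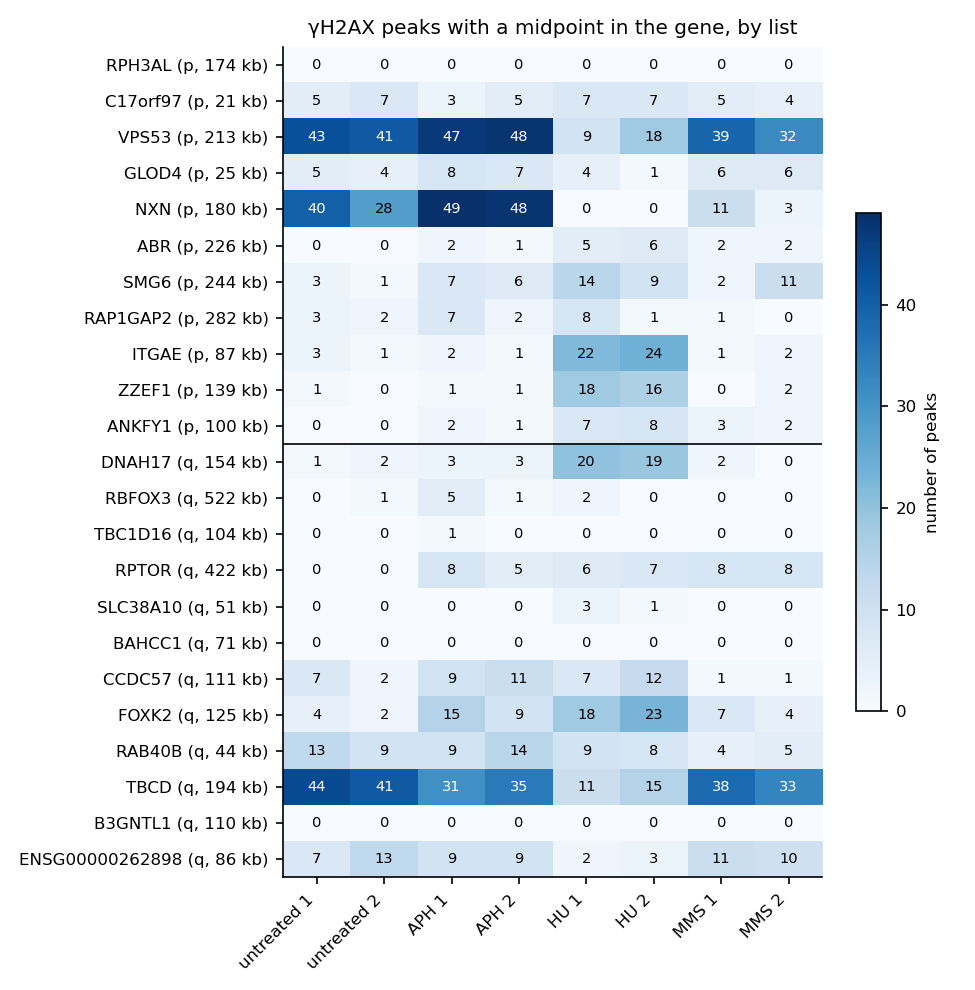
Number of γH2AX peaks with their midpoint in each gene (rows, in order along the chromosome with the p end above the line, end and gene length in parentheses) in the 8 lists (columns), with darker blue for more peaks. VPS53, NXN and TBCD are dark in untreated and APH columns, NXN holds 0 in both HU columns, and ITGAE, ZZEF1 and DNAH17 stand out in the HU columns.

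Among 199 protein-coding genes of the ends, 23 held a peak in both replicates of untreated cells (11.6%), 45 with APH (22.6%), 101 with HU (50.8%) and 40 with MMS (20.1%), while 53 held none in any list. These shares are the background for the gene groups. Of 17 genes listed for their length, a hand-made list that leaves out some longer genes such as DNAH17, 7 were marked in both untreated lists, 12 with APH, 11 with HU and 9 with MMS, with a median of 0.5, 3.00, 5.50 and 1.00 peaks per gene. Some long genes held few peaks or none. RPH3AL (174 kb), B3GNTL1 (110 kb) and BAHCC1 (70.9 kb) held none in any list, and RBFOX3, the longest at 522 kb and the source of the neuronal marker NeuN, held at most 5. ABR (226 kb) starts beyond the edge of the outer p block and held 0 and 0 peaks in untreated cells against 40 and 28 in NXN on the other side of that edge.

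Of 10 genes of the Miller-Dieker interval, 2 were marked in both untreated lists, 2 with APH, 6 with HU and 4 with MMS. PAFAH1B1, whose loss causes the lissencephaly of that syndrome, held 0 and 0, 0 and 0, 7 and 3, and 1 and 1 peaks, and METTL16, an RNA methyltransferase, 12 and 5 with HU. YWHAE and PRPF8, which encode 14-3-3ε and a core spliceosome protein, held none in any list. The 10 listed olfactory receptor genes of the p end were without a peak in all lists. Several of them are under 1 kb long, and the cluster overlaps the 216 kb from 3184262 to 3399873 in which no list had a peak.

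Of 9 lymphocyte and immune genes, 2 were marked in both untreated lists, 2 with APH, 6 with HU and 3 with MMS. ITGAE led the group, and CD7, a T-cell surface protein, held none in any list. Of 8 nuclear genes listed under replication and repair, 0 were marked in both untreated and 0 in both APH lists, 5 with HU and 1 with MMS. The 5 were RPA1, the large subunit of the single-strand binding protein RPA, with 9 and 4 peaks, and TSR1, PELP1, EIF4A3 and CSNK1D, whose main roles lie elsewhere (ribosome assembly, steroid receptor coactivation, exon junctions and casein kinase signalling). FAAP100, a Fanconi core complex subunit, held 1 and 0 with HU, and CENPX none. Of 9 metabolic genes 1, 1, 6 and 2 were marked in both lists of the conditions in the same order, and the gene marked in untreated cells was FN3K, fructosamine 3-kinase, with 5 and 3 peaks. It lies in the outer q block, whereas FASN, fatty acid synthase, held none. Of 6 genes of actin and cell shape 0, 1, 2 and 1 were marked in both lists, of 3 lysosomal genes 0, 0, 0 and 1, and of 3 polycomb CBX genes none in any condition. Groups of this size allow no closer reading against the shares of all genes.

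The replicated peaks of highest mean fold enrichment lay in different places by treatment. In untreated cells these were at 426595 to 431488 in C17orf97, with 2.96- and 3.18-fold enrichment, and at 83182378 to 83192354 in an intron of ENSG00000262898, with 3.52- and 3.26-fold. With APH they were at 559989 to 564472 in VPS53 (3.47- and 3.19-fold) and at 82802148 to 82803580 in an intron of TBCD (3.29- and 3.78-fold). With MMS they were over TLCD3A and GEMIN4 at 742128 to 746072 (2.99- and 3.35-fold) and over introns of TBCD and ZNF750 at 82837533 to 82838908 (2.71- and 3.56-fold). Those of HU lay outside the outer blocks, in a coding exon of ITGAE at 3747883 to 3748841 (3.01- and 3.65-fold) and between genes at 78310379 to 78313115 (3.68- and 3.52-fold). The mean fold enrichment of these peaks ranged only from 3.07 to 3.60, so their order carries little weight.

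The share of end peaks in protein-coding genes was near that of the bases in untreated and APH lists, lower with HU and higher with MMS. Midpoints fell in protein-coding genes for 76.5% and 71.7% of untreated, 73.8% and 77.0% of APH, 65.5% and 64.9% of HU, and 79.8% and 79.1% of MMS peaks, against 74.0% of the assembled bases of the ends. HU was the only condition below the bases in both lists, and MMS the only one above them in both. In exons lay 12.9% and 11.6% of untreated, 8.65% and 11.8% of APH, 8.47% and 10.8% of HU, and 12.2% and 13.6% of MMS midpoints, against 10.7% of bases. These differences were not tested. Within 1 kb of a transcription start lay 15.4% and 14.6%, 16% and 15.8%, 12.8% and 13.1%, and 22.3% and 17.3% of midpoints, against 15.8% of bases. In sequence, covered bases were poorer in G+C than the ends around them. G+C was 49.3% over the p end and 47.3% and 47.0% in its untreated peaks, and 53.7% over the q end and 51.1% and 50.6% in its untreated peaks. CG dinucleotides numbered 22.2 per kb over the p end against 18.9 and 18.9 in untreated and 17.6 and 17.8 in HU peaks. The telomere unit TTAGGG was found, on both strands together, 321 times per Mb over the p end, and in its peaks 290 and 308 times in untreated cells, 260 and 311 with APH, 313 and 326 with HU, and 270 and 271 with MMS. Over the q end it was found 334 times per Mb, and in its peaks 355 and 393 times in untreated cells, 397 and 437 with APH, 304 and 276 with HU, and 468 and 431 with MMS. Peaks of untreated, APH- and MMS-treated cells thus held it more often than the whole end at the q end and less often at the p end. HU peaks were near the rate of the whole end at the p end and below it at the q end. All bases of the outer 1 Mb, however, held it 425 times per Mb at the p end and 358 times at the q end. Against the latter, peaks in the outer 1 Mb of the q end held it 371 and 405 times in untreated cells and 417 and 457 with APH. With MMS it was 380 and 445 times and with HU 241 and 332. Peaks in the outer 1 Mb of the p end held it less often than the 425 of all its bases in every list. There it was found 285 and 309 times in untreated cells and 259 and 319 with APH. With HU it was 249 and 385 times and with MMS 255 and 221. In the inner 4 Mb of the p end it was 297 times over all bases and 319 and 321 in HU peaks. These rates rest on short covered lengths and were not tested.

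The single peaks nearest to the inner limits on either side came from different lists, so their enrichment is given without a comparison. The last peak inside 5 Mb of the p end was at a midpoint of 4996016 in HU replicate 1 with 2.56-fold enrichment, and the first outside at 5004850 in MMS replicate 1 with 2.67-fold. At the q end the last inside was at 78260000 in HU replicate 1 with 2.71-fold and the first outside at 78256440 in untreated replicate 1 with 2.64-fold.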

How the data were processed

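γH2AX ChIP-seq peaks of 8 libraries were analysed, 2 each of untreated, APH-, HU- and MMS-treated cells. The input library was not analysed here. Per the labels and the study's methods, the authors aligned reads with Bowtie2 to hg38 (GRCh38), filtered them with SAMtools and ran the broad mode of MACS2 for each replicate alone with the input as control. The study's methods add that reads below a quality limit, PCR duplicates and blacklisted regions were removed. Tool versions are not given in the sources used here. For every peak the deposited lists give a score (not used here), a fold enrichment, which is a linear ratio to background, and 2 columns of −log10 values, 1 for the p-value and 1 for the q-value. All of these are as the authors' peak caller wrote them. Read numbers, and hence depth, are unknown, so the spread between 2 replicates is the measure of precision. Nothing but the replicate label and the methods' wording of separate treatments speaks to how independent the replicates are.

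Peaks on chromosomes 1 to 22 and X were kept, and a peak belonged to an end by its midpoint. The lengths of the reference chromosomes were compared with the build of the lists. Assembled bases gave the denominators, and genes came from GENCODE release 44. Overlap meant at least 1 bp. Ratios, medians and overlaps were computed in Python 3.11.15 with numpy 2.4.6, pandas 2.3.3 and scipy 1.17.1, and drawn with matplotlib 3.10.9. Fold enrichment and width were compared over lists with exact two-sided sign-flip permutation tests. The test was checked only on made-up values of like sign, where it gave the lowest possible p. Counting, overlap and merging of peaks were checked on simulated peak lists. Tests of peak numbers between the ends had been planned, but no p is reported for them because peak numbers chose the ends. The smallest p was 0.333 for 2 against 2 lists, so treatments were not tested one by one. The ends, the gene lists and the tests were chosen with earlier results of these data known. Named sites were the 3 found in the most lists at each end, with ties broken by fold enrichment, and the strongest replicated peak per condition and end. Some sites and sequences of the p end are not reported here. Named genes were the 3 with the most peaks per condition and end, and the members of the gene lists. One listed immune gene, XAF1, lies outside the ends and was left out. The alternatives were stricter peak sets, merged peaks, other window and bin sizes, other overlap rules, a replicate block and leaving out each list. Alternative lists with equal peak numbers and the division into outer 1 Mb and inner 4 Mb were chosen after seeing the data.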

Additional observations from a re-analysis of the deposited data

Results flagged for a closer look

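On contigs that the assembly assigns to chromosome 17 without placing them on it, peaks appeared in MMS lists and in neither untreated list: 4 peaks on KI270729v1_random in MMS replicate 2 and 1 peak on KI270859v1_alt in MMS replicate 1. Each was seen in 1 of the 2 MMS replicates. They were singled out because they lie outside the comparisons of the report and above the untreated level of 0. A further contig, GL000205v2_random, held 5 peaks in untreated replicate 1, 5 in APH replicate 1 and 1 in HU replicate 1, and none in the other lists.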

How the results depend on the processing

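The lists hold peaks above the caller's threshold and no reads, so neither depth nor signal below the threshold could be examined, and the lists share 1 input and 1 cell line. The ends were denser than the rest of the genome in every condition under every alternative tried. The density ratios, in the order untreated, APH, HU and MMS, were 24.9, 9.86, 3.16 and 7.36 with the stronger 50% of each list, and 49.6, 22.3, 3.67 and 11.0 with a fold enrichment of at least 3. With terminal windows of 2 Mb they were 38.9, 13.2, 2.74 and 10.5, and with 10 Mb 10.5, 5.01, 2.94 and 4.13. Merging peaks within 1 kb gave 16.1 and 6.20 for untreated and APH, and equal peak numbers 12.9, 3.07 and 7.59 for APH, HU and MMS. Membership by any overlap moved no ratio by as much as the replicate SD. Without 1 replicate the ratios ran from 16.8 to 17.8, 6.71 to 6.94, 2.55 to 2.77 and 5.48 to 5.87.

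The log2 ratio of q to p peaks was -0.057 with the stronger 50% of each list and -0.21 with equal peak numbers, and turned with 3-fold enrichment (0.27) and with 2 Mb windows (0.29). Leaving out 1 list gave -0.17 to -0.11. The treated minus untreated share at the q end was -6.50 points with the stronger 50% and -15.0 points with 3-fold enrichment, and turned with 2 Mb (4.68) and 10 Mb windows (1.32). Leaving out 1 list gave -3.54 to -2.40. No p is given for either, since peak numbers chose the ends. The excess in fold enrichment lost its call among peaks of at least 3-fold enrichment (0.003), a limit that removes the lower part of both distributions, and was 0.091 to 0.10 with 1 list left out. The log2 width ratio kept its direction and call throughout, at 0.31 to 0.41 with 1 list left out. The causes of the turned directions were not tested.

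The share of end peaks found in the other replicate fell to 22.6%, 27.9%, 26.4% and 0% with 3-fold enrichment, and to 21.4%, 22.4%, 18.9% and 8.86% with a reciprocal overlap of 50%. For APH and MMS it was 73.7% and 43.1% with 2 Mb windows and 42.7% and 26.1% with 10 Mb. For HU it was 45.9% with the stronger 50% and 8.99% with equal peak numbers, where MMS had 26.3%. Counting peaks within 1 kb as shared gave 63.1% for HU and 43.6% for MMS. Leaving out a replicate can give no value here. Between conditions the 1 kb rule gave 88.5%, 51.7% and 60.2% of untreated peaks in APH, HU and MMS, and 62.5%, 51.7% and 45.6% of APH peaks in untreated, HU and MMS. It gave 20.2%, 31.2% and 20.3% of HU peaks in untreated, APH and MMS, and 62.5%, 72.5% and 55.0% of MMS peaks in untreated, APH and HU.

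Bins counted as higher and lower numbered 11 and 27 with APH, 23 and 27 with HU, and 8 and 28 with MMS among 100 bins of 100 kb. Among 10 bins of 1 Mb they numbered 1 and 4, 1 and 5, and 1 and 7, and by raw peak counts among the 40 bins 19 and 2, 28 and 5, and 9 and 10. With 1 list left out the counts ran from 5 to 11 and 16 to 23 with APH, 8 to 13 and 16 to 22 with HU, and 7 to 9 and 17 to 24 with MMS. Leaving out a list relaxes the rule, so the counts could only stay the same or rise, and the rises below are no measure of instability. The MMS count of higher bins rose from 4 to 7 or more whichever list was left out, and the APH count from 5 to 10 or more without APH replicate 2 or either untreated list. Without untreated replicate 1 the APH count of lower bins was 23, and without either untreated list the HU count of higher bins was 13.

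Replicate numbers were not shown to pair the samples. Deviations of same-numbered lists from their condition mean, over 12114 bins of 250 kb, correlated at -0.069 to 0.060 between conditions. A replicate block changes only which regroupings are allowed. The difference of -3.06 points in the share at the q end is therefore the same by construction and tells nothing about pairing.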
